A study of Mus musculus with 12 samples.

Results

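The 10 genes described here, *Arntl*, *Clock*, *Npas2*, *Per1*, *Per2*, *Per3*, *Cry1*, *Cry2*, *Nr1d1* and *Dbp*, belong to the circadian clock. They were found by name, as the probe sets to which the array annotation gives a single gene symbol. *Per2* could not be used, because its probe set carries the symbols of 2 genes. The other 9 each had 1 probe set with a single symbol, and all 9 were among the 14550 genes kept in the whole series. RNA came from the inguinal white adipose tissue (WAT) of 6 R6/2 mice and 6 WT littermates, all males of 12 weeks on a C57BL/6 background. Each mouse was run on its own Affymetrix Mouse Gene 2.0 ST array. R6/2 mice carry a transgene with exon 1 of the human huntingtin gene and an expanded CAG repeat, and serve as a model of Huntington's disease. The colony was kept under an even light and dark cycle with free access to food. The hour at which each mouse was killed is not given in the sources used here, and each mouse gives a single time of day. Values are RMA signals on the log2 scale, so that 1 unit equals a 2-fold change.

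The circadian clock of a cell is a feedback loop of transcription factors. ARNTL (also called BMAL1) pairs with CLOCK or its relative NPAS2, and the pair binds E-boxes to switch on the *Per*, *Cry*, *Nr1d1* and *Dbp* genes. PER and CRY proteins then return to the nucleus and block the pair that made them. NR1D1 (REV-ERB alpha), a nuclear receptor that represses transcription, keeps *Arntl*, *Npas2* and *Cry1* down, and DBP activates genes through D-boxes, among them the *Per* genes. *Arntl* and *Npas2* therefore peak when *Nr1d1* and *Dbp* are at their trough. In rodent WAT these genes cycle through the day, and feeding, glucocorticoids and the light cycle set their phase.

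The start regions of 4 members are printed because they hold matches to 3 motifs linked to this loop. The windows run from 250 bases before to 50 bases after a start site, 300 bases in all, and come from RefSeq on the mouse build GRCm38.p6, in which all 9 measured members had an entry. Capitals mark an E-box (CACGTG), a D-box (TTATGNAA) or the site read by nuclear receptors of the NR1D and ROR families (AGGTCA), searched on both strands. The first *Per1* start (chr11:69098699-69098998, plus strand) held all 3, with first bases 166 bases before the start for the E-box, 137 before for the receptor site and 24 before for the D-box. *Per3* (chr4:151044616-151044915, minus strand) held 2 D-boxes, 205 and 158 bases before the start. *Cry1* (chr10:85185005-85185304, minus strand) held an E-box 60 bases before the start, and the second *Arntl* start (chr7:113207261-113207560, plus strand) a receptor site 31 bases after it.
Per1: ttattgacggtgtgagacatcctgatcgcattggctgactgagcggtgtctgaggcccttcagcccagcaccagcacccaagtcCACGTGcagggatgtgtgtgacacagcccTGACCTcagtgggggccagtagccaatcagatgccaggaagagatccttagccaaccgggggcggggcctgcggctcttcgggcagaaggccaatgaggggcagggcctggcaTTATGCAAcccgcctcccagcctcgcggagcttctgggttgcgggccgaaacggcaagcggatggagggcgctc
Per3: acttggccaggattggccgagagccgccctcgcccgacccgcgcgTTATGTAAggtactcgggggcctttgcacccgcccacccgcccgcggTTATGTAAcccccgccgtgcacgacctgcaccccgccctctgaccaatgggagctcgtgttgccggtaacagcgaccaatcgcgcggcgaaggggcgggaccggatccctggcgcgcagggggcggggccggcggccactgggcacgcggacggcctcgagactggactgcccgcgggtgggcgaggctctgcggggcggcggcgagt
Cry1: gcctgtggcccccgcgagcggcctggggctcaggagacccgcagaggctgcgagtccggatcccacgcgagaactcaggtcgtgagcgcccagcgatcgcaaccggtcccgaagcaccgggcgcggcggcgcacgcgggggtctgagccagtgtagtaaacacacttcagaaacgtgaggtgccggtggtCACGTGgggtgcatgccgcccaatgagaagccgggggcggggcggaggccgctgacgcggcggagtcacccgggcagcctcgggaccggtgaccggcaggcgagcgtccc
Arntl: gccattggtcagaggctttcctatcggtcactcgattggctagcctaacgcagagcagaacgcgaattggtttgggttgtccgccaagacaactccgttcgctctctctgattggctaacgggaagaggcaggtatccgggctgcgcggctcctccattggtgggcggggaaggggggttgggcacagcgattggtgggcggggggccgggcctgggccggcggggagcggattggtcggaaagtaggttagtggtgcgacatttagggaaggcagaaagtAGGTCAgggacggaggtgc
Of 32851 such windows of mouse genes, 7.15% held an E-box, 3.38% a D-box and 16.3% a receptor site. The windows of *Nr1d1*, *Dbp*, *Npas2* and *Cry2* held none of these letters, and the third *Clock* start held a receptor site 119 bases before it. The second *Per1* start, the first *Arntl* start and the first and second *Clock* starts also held none. A match describes the sequence and is not a measured binding site.

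Inguinal fat pads hold a lymph node and lie on muscle, and the arrays differed in both. The mean signal of 13 lymphocyte markers was 5.50 to 9.93 in R6/2 and 5.36 to 10.15 in WT mice. It was lowest in R6/2 mice 3 and 4 and in WT mouse 4, at 5.50, 5.69 and 5.36. The mean of 15 skeletal muscle markers was 5.75 to 10.47 in R6/2 and 5.73 to 10.09 in WT mice, with 15 of 15 higher in R6/2 mice on average (means 8.15 and 7.04 in R6/2 and WT mice) and 0 at an unadjusted limma p under 0.05. Of 8 brown fat cell markers, 7 were higher in R6/2 mice, 2 of them at that p beside 2.53% of all genes, and their mean was 9.08 in R6/2 and 8.27 in WT mice. Fat cell markers had high signals in every mouse, and the mean of 10 of them was 10.89 to 11.77 in R6/2 and 11.03 to 11.79 in WT mice, with 10 of 10 lower in R6/2 mice on average and 1 of them, *Lep*, at that p beside 3.31% of all genes. All 11 macrophage markers were lower in R6/2 mice on average, 5 of them at that p beside the same 3.31%. The part of brown fat cells in the differences of the clock genes was not tested. In bulk tissue, fewer cells of a type and less RNA per cell cannot be told apart.

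*Nr1d1* was the clock gene with the largest difference. Its signals in R6/2 mice 1 to 6 were 9.49, 9.39, 9.79, 10.12, 8.34 and 9.27, against 10.76, 10.41, 9.91, 10.66, 10.39 and 10.14 in WT mice 1 to 6. In 5 of 6 R6/2 mice the signal lay below every WT mouse, and R6/2 mouse 4 was the exception. The means were 9.40 ± 0.60 in R6/2 and 10.38 ± 0.32 in WT mice (SD, n = 6 each), a log2 difference of -0.98 (SE 0.25) or a signal 1.97 times lower. SAM, the permutation method used by the study, called it at a q of 3.13%, while the limma p of 0.00217 became 0.588 after adjustment over all genes. The exact permutation p, two-sided and unadjusted, was 0.00433. Without R6/2 mice 1, 2 or 6 or WT mice 2 or 4 the SAM call was lost, at a q of 5.37% to 6.06%, and the difference over all 12 omissions stayed between -1.12 and -0.77.

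The fat cell mean moved with *Nr1d1* over the 12 mice, and with that mean as a covariate in limma the difference was -0.61 (SE 0.15, adjusted p = 0.216). With the lymphocyte mean it was -0.99 (SE 0.18, adjusted p = 0.0635), and without the 3 mice lowest in lymphocyte markers -1.20 (SE 0.24, adjusted p = 0.147). With the macrophage mean, which was lower in R6/2 mice, it was -1.07 (SE 0.34, adjusted p = 1.00), and with the muscle mean -1.03 (SE 0.27, adjusted p = 0.924). These values were all on the same side of 0. Weighting each array by how closely it followed the genotype fit gave -1.12 and passed limma (adjusted p = 0.0446). With these weights 46 of all genes passed, against 0 without them.

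**Figure D1:**
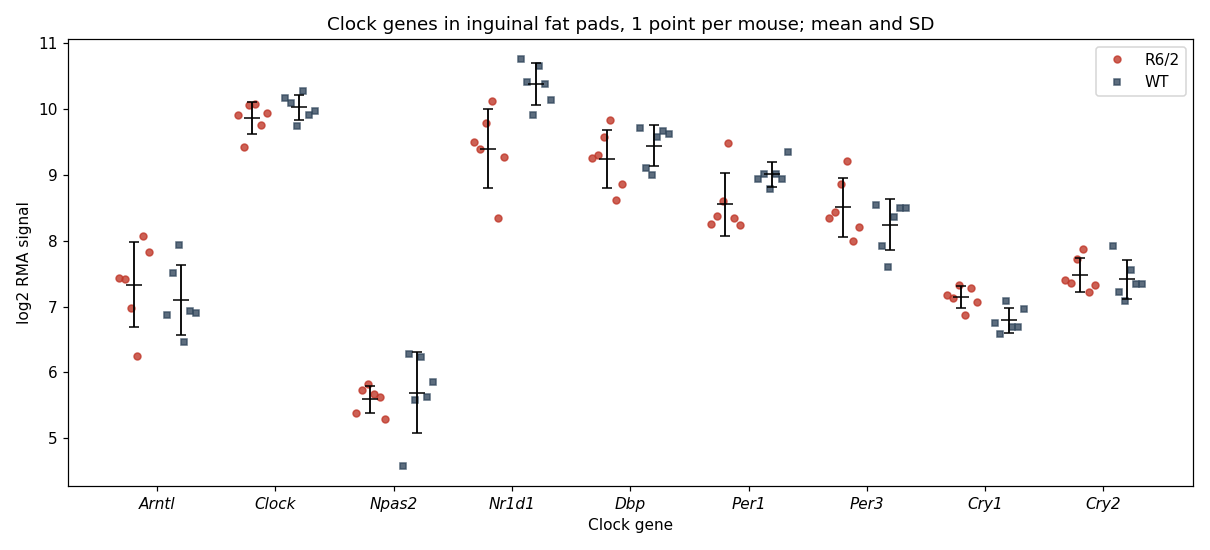
RMA log2 signal (vertical axis) of the 9 measured clock genes (horizontal axis) in each of 6 R6/2 mice, left, and 6 WT mice, right, with 1 point per mouse and bars for the mean and SD. *Nr1d1* is below all WT mice in 5 of 6 R6/2 mice and *Cry1* above all WT mice in 4 of 6, while the genotypes overlap for all 9 genes.

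*Per1*, *Per3* and *Dbp* are direct targets of the ARNTL and CLOCK pair, and their differences had both signs. *Per1*, whose protein represses that pair, had 8.26, 8.37, 8.60, 9.48, 8.35 and 8.24 in R6/2 mice 1 to 6, against 8.94, 9.02, 8.79, 9.02, 8.94 and 9.34 in WT mice 1 to 6. The same 5 of 6 R6/2 mice as for *Nr1d1* lay below every WT mouse, and R6/2 mouse 4 lay above them all. The means were 8.55 ± 0.47 in R6/2 and 9.01 ± 0.19 in WT mice (SD, n = 6 each), with a log2 difference of -0.46 (SE 0.19, limma adjusted p = 0.836). Unadjusted, the limma p was 0.0350 and the exact permutation p 0.0628, and with a SAM q of 32.3% the difference passed neither adjusted test. Without R6/2 mouse 4 it was -0.64 and passed both, with a limma adjusted p of 0.0491 and a SAM q of 0%. Of all genes, 23 then passed limma and SAM called 430, against 0 and 41 with all 12 mice. With the macrophage mean as a covariate the *Per1* difference over all mice was -0.33 (SE 0.25), and with the fat cell mean -0.22 (SE 0.15, adjusted p = 0.488).

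*Per3*, a further *Per* gene, had 8.35, 8.43, 8.85, 9.21, 7.99 and 8.21 in R6/2 mice 1 to 6, against 8.55, 7.92, 7.61, 8.37, 8.50 and 8.50 in WT mice 1 to 6. R6/2 mice 3 and 4 were above every WT mouse and the others overlapped with WT. The means were 8.51 ± 0.45 in R6/2 and 8.24 ± 0.39 in WT mice, a difference of 0.27 (SE 0.22, limma adjusted p = 0.911). With the fat cell mean as a covariate it was 0.60 (SE 0.12, adjusted p = 0.160), while it was 0.13 without R6/2 mouse 4 and 0.14 without WT mouse 3. *Dbp*, the D-box activator, had 9.25, 9.30, 9.58, 9.84, 8.62 and 8.87 in R6/2 mice 1 to 6, against 9.71, 9.11, 9.00, 9.58, 9.66 and 9.62 in WT mice 1 to 6. Of the R6/2 mice, 2 were below and 1 above every WT mouse. The means were 9.24 ± 0.45 in R6/2 and 9.45 ± 0.31 in WT mice, a difference of -0.20 (SE 0.20, limma adjusted p = 0.937). Omitting R6/2 mouse 5 gave -0.08, mouse 6 of that genotype -0.13 and mouse 4 -0.32. The difference was -0.40 with array weights (limma adjusted p = 0.221) and 0.10 with the fat cell mean as a covariate.

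The cryptochromes are the main repressors of the loop. *Cry1* had 7.17, 7.13, 7.33, 6.88, 7.28 and 7.06 in R6/2 mice 1 to 6, against 6.75, 6.58, 7.08, 6.70, 6.68 and 6.97 in WT mice 1 to 6. In 4 of 6 R6/2 mice it lay above every WT mouse, and R6/2 mice 4 and 6 lay within the WT range. The means were 7.14 ± 0.16 in R6/2 and 6.79 ± 0.19 in WT mice (SD, n = 6 each), a difference of 0.35 (SE 0.10, limma adjusted p = 0.630) or a signal 1.27 times higher. Unadjusted, its limma p was 0.00519 and its exact permutation p 0.0130, and with a SAM q of 34.2% it too passed no adjusted test. With the fat cell mean as a covariate the difference was 0.25 (SE 0.09, adjusted p = 0.290). *Cry2* was 7.21 to 7.87 in R6/2 and 7.09 to 7.93 in WT mice, so every R6/2 value lay within the WT range, with a difference of 0.07 (SE 0.15, limma adjusted p = 0.978).

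The activators differed less between the genotypes than between mice of the same genotype. *Arntl* had 7.44, 7.42, 6.98, 6.25, 8.08 and 7.82 in R6/2 mice 1 to 6, against 6.88, 7.50, 7.93, 6.46, 6.93 and 6.90 in WT mice 1 to 6. The lowest value of all was that of R6/2 mouse 4 and the highest that of R6/2 mouse 5, so the R6/2 range enclosed the WT range. The means were 7.33 ± 0.65 in R6/2 and 7.10 ± 0.53 in WT mice, a difference of 0.23 (SE 0.31, limma adjusted p = 0.958), and with the fat cell mean as a covariate the difference was of the other sign, -0.27 (SE 0.12, adjusted p = 0.319). It was 0.08, 0.13 and 0.10 without R6/2 mice 5 or 6 or WT mouse 4, 0.45 and 0.40 without R6/2 mouse 4 or WT mouse 3, and 0.53 with array weights (adjusted p = 0.221). *Clock* was 9.43 to 10.07 in R6/2 and 9.74 to 10.27 in WT mice, a difference of -0.16 (SE 0.12, limma adjusted p = 0.903). *Npas2* was 5.29 to 5.83 in R6/2 and 4.58 to 6.28 in WT mice, a difference of -0.10 (SE 0.24, limma adjusted p = 0.981). Its means, 5.59 in R6/2 and 5.69 in WT mice, were just above the level limits of 5.44 and 5.45 in those genotypes, so its order among mice is uncertain.

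Of the 9 measured clock genes, 5 had a lower and 4 a higher mean in R6/2 mice. None passed limma after adjustment, as for all genes tested, of which 0% passed. At an unadjusted limma p under 0.05, 2 of 9 were lower (*Nr1d1* and *Per1*), beside 3.31% of all genes, and 1 of 9 was higher (*Cry1*), beside 2.53% of all genes. SAM called 1 of 9 lower, beside 0.275% of all genes, and 0 of 9 higher, beside 0.00687%. In no clock gene were the genotypes without overlap, which held for 0.186% of all genes with R6/2 lower and 0.199% with R6/2 higher. The median log2 difference was -0.10 over the 9 clock genes and 0.01 over all genes.

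**Figure D2:**
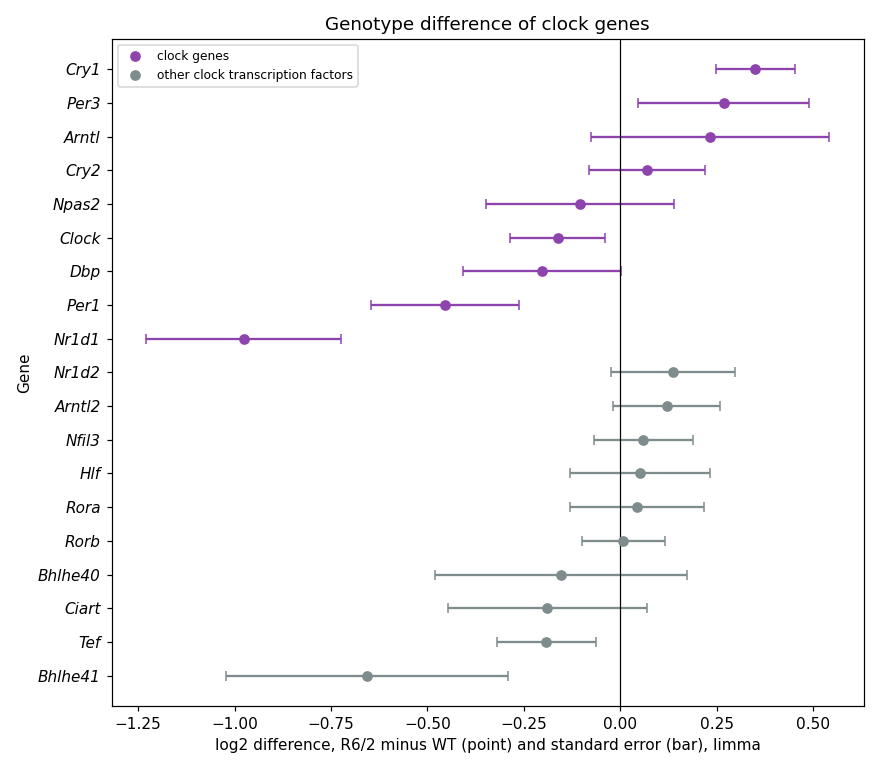
Log2 difference of R6/2 minus WT mice with its standard error (horizontal axis) from limma on 6 mice per genotype, for the 9 measured clock genes above and the 10 other clock transcription factors below. *Nr1d1* at -0.98 lies farthest left, followed by *Bhlhe41* at -0.66, and *Cry1* at 0.35 lies farthest right.

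Within a genotype, 8 of 9 clock genes varied more than the median gene. The SD within genotypes had a median of 0.38 over the 9 clock genes and 0.21 over all genes. That of *Arntl* exceeded that of 93.4% of all genes, *Nr1d1* 89.8%, *Per3* 86.1%, *Dbp* 83.0% and *Per1* 80.3%, while *Cry1* exceeded only 37.3%.

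This variation was shared, and *Arntl* ran against its opposite-phase partners from mouse to mouse, as many genes outside the clock also did. The permutation tests compare each pair with no relation, and not with other genes. Over the 12 mice Pearson's r of *Arntl* with *Dbp* was -0.939 (permutation p = 2e-05, 1e-04 after adjustment over the 5 pairs tested) and Spearman's rho was -0.944 (permutation p = 2e-05). *Arntl* with *Per3* gave r = -0.802 (permutation p = 0.00163, adjusted 0.00313) and rho = -0.818 (permutation p = 0.00172). *Arntl* with *Nr1d1* gave r = -0.697 (permutation p = 0.00995, adjusted 0.0124) and rho = -0.657 (permutation p = 0.0235). Mice high in *Arntl*, such as R6/2 mouse 5 and WT mouse 3, were thus low in *Dbp* and *Per3*, and R6/2 mouse 4 was the reverse. *Dbp* and *Per3*, which share their phase, varied together with r = 0.783 (permutation p = 0.00188, adjusted 0.00313) and rho = 0.853 (permutation p = 0.0009). *Npas2*, near the level limit, showed no detectable relation with *Nr1d1* (r = 0.058, permutation p = 0.852, adjusted 0.852, rho = 0.301, permutation p = 0.344).

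Without the 2 mice farthest from the *Arntl* median, R6/2 mice 4 and 5, r was -0.916 with *Dbp*, -0.684 with *Per3* and -0.663 with *Nr1d1*. Within the genotypes, *Arntl* with *Dbp* gave r = -0.968 in R6/2 and -0.891 in WT mice (exact permutation p = 0.00417 and 0.0375, n = 6 each). *Arntl* with *Per3* gave -0.988 in R6/2 and -0.885 in WT mice (exact permutation p = 0.00139 and 0.0264). *Arntl* with *Nr1d1* gave -0.898 in R6/2 and -0.713 in WT mice, of which only the R6/2 value had an exact permutation p under 0.05 (0.0236 and 0.122). *Dbp* with *Per3* gave 0.961 in R6/2 and 0.986 in WT mice (exact permutation p = 0.00417 and 0.00278), and without R6/2 mice 5 and 6, the 2 farthest from the *Dbp* median, r over all mice was 0.869. The r of *Arntl* with each of these partners was thus negative in both genotypes. *Clock*, the partner of ARNTL, varied against *Arntl* itself: over deviations from the genotype means its r was -0.57 with *Arntl*, 0.58 with *Nr1d1* and 0.65 with *Cry2*.

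**Figure D3:**
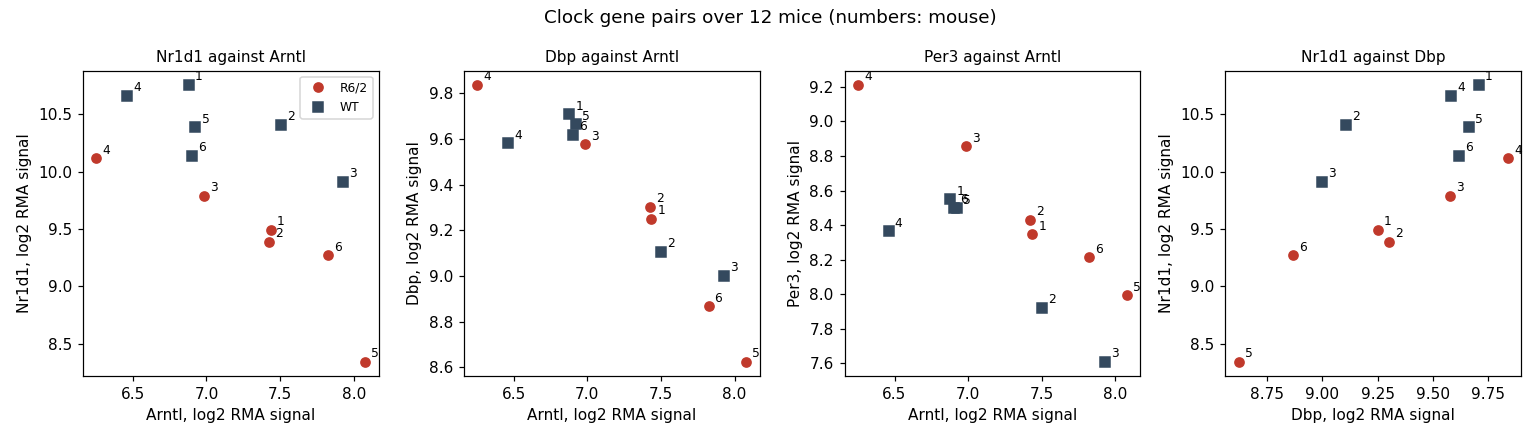
Log2 signal of *Nr1d1*, *Dbp* and *Per3* against *Arntl*, and of *Nr1d1* against *Dbp*, 1 numbered point per mouse, with 6 R6/2 and 6 WT mice marked apart. The points of *Arntl* against *Dbp* and *Per3* fall along descending lines in both genotypes, and R6/2 mouse 4 has the lowest *Arntl* signal.

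**Figure D4:**
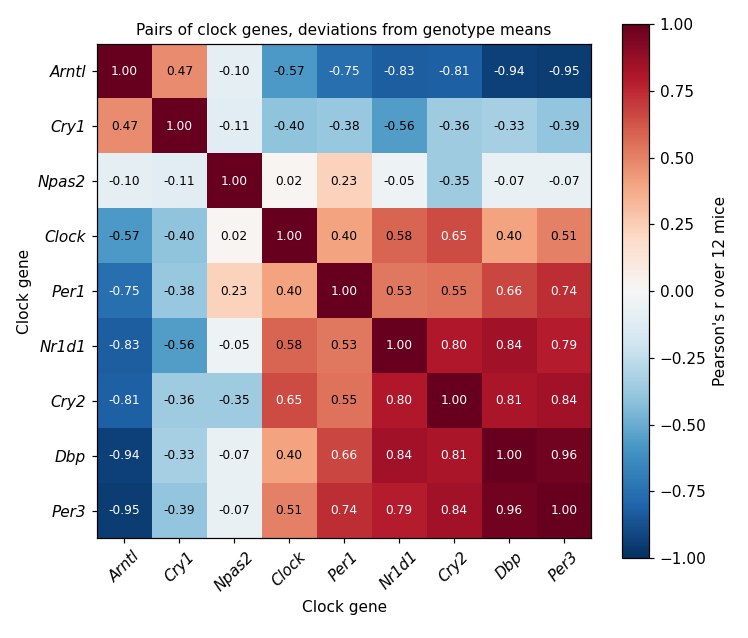
Pearson's r of the deviations from the genotype means, over 12 mice, for the 36 pairs of the 9 measured clock genes, as colours from -1 to 1. *Arntl* is negative with *Per1*, *Per3*, *Cry2*, *Nr1d1* and *Dbp*, which are positive with one another, and *Npas2* is close to 0 with most.

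The fat cell and lymphocyte marker means moved with the same axis. They are expression values, in which cell numbers and RNA per cell cannot be told apart. Between the genotypes *Lep* differed most of the fat cell markers, by -1.26, against -0.29 to -0.01 in the others. *Arntl* followed the fat cell mean with r = -0.930 (permutation p = 1e-05, the smallest that these permutations can give, 0.00018 after adjustment over 18 relations of the 9 genes with 2 marker means; rho = -0.951) and the lymphocyte mean with r = 0.842 (permutation p = 0.00032, adjusted 0.00166, rho = 0.867). *Dbp* followed the fat cell mean with r = 0.881 (permutation p = 0.00027, adjusted 0.00166) and *Nr1d1* with r = 0.842 (permutation p = 0.00037, adjusted 0.00166). *Per1* did so with r = 0.790 (permutation p = 0.0030, adjusted 0.0108) and *Cry1* with r = -0.711 (permutation p = 0.0108, adjusted 0.0215). The fat cell and lymphocyte means themselves ran against each other, with r = -0.686 (permutation p = 0.0153).

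The pairs were computed again with genotype and both marker means taken out of each gene, a setting added after the values had been seen. The permutations made no allowance for the terms taken out, so the p-values given with them are too small. *Arntl* with *Dbp* then had r = -0.744 (permutation p = 0.0031), *Arntl* with *Per3* -0.659 (permutation p = 0.0193) and *Dbp* with *Per3* 0.826 (permutation p = 0.0008). *Arntl* with *Nr1d1* had r = 0.093 (permutation p = 0.763), so that this pair no longer ran in opposite directions. With genotype and the lymphocyte mean alone taken out it had been -0.584 (permutation p = 0.0399).

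The balance of opposite phases, the mean of *Arntl*, *Clock* and *Npas2* minus the mean of *Nr1d1*, *Dbp*, *Per1* and *Per3*, computed without *Per2*, overlapped between the genotypes. In R6/2 mice 1 to 6 it was -1.26, -1.34, -1.58, -2.33, -0.50 and -0.96, against -2.28, -1.15, -1.08, -1.75, -1.88 and -1.83 in WT mice 1 to 6. R6/2 mouse 4 was below and R6/2 mice 5 and 6 were above every WT mouse. The means were -1.33 ± 0.61 in R6/2 and -1.66 ± 0.46 in WT mice (SD, n = 6 each), a difference of 0.33 that is smaller than either SD. It was 0.17 without R6/2 mouse 5 and 0.21 without WT mouse 1, and 0.53 without R6/2 mouse 4. The balance of *Arntl* and *Npas2* against *Nr1d1*, *Dbp* and *Per3* alone was -2.59 ± 0.77 in R6/2 and -2.96 ± 0.69 in WT mice.

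Set against 3 other clock genes, *Nr1d1* separated the genotypes beside *Dbp* and *Per3* but not beside *Per1*. These comparisons were chosen after the values were seen and are given with no test. The hour of death is not given, and whether these differences depend on it was not tested. *Nr1d1* minus *Dbp* was 0.24, 0.08, 0.22, 0.28, -0.28 and 0.41 in R6/2 mice 1 to 6, against 1.05, 1.31, 0.91, 1.08, 0.72 and 0.52 in WT mice 1 to 6. All 6 R6/2 mice were below all 6 WT mice, including R6/2 mouse 4, in which *Nr1d1* alone lay within the WT range. *Nr1d1* minus *Plin1*, a fat cell marker, likewise lay lower in every R6/2 mouse than in any WT mouse. Such a separation is thus not particular to pairs of clock genes. How often other pairs of genes separate the genotypes in this way was not tested. The means of *Nr1d1* minus *Dbp* were 0.16 ± 0.24 in R6/2 and 0.93 ± 0.28 in WT mice, a difference of -0.77. *Nr1d1* minus *Per3* was 0.89 ± 0.28 (0.35 to 1.15) in R6/2 and 2.14 ± 0.31 (1.64 to 2.49) in WT mice, again with all 6 R6/2 mice below WT. *Nr1d1* minus *Per1* overlapped, with 0.85 ± 0.47 (-0.01 to 1.23) in R6/2 and 1.37 ± 0.37 (0.79 to 1.82) in WT mice and 2 of 6 R6/2 mice below WT. *Per1* minus *Dbp* was -0.69 ± 0.32 in R6/2 and -0.44 ± 0.29 in WT mice, with 3 of 6 R6/2 mice below WT. In limma with *Dbp* as a covariate, also added after the values were seen, *Nr1d1* differed by -0.76 (SE 0.15, adjusted p = 0.144) and *Per3* by 0.48 (SE 0.08, adjusted p = 0.0769), so that neither passed over all genes.

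Further clock genes had differences of both signs. Of 11 other clock transcription factors 10 were measured, with 4 lower and 6 higher in R6/2 mice and 0 at an unadjusted limma p under 0.05. *Bhlhe41*, a repressor of the ARNTL and CLOCK pair, differed by -0.66 (SE 0.37, limma adjusted p = 0.874) and its relative *Bhlhe40* by -0.15 (SE 0.33). Without R6/2 mouse 5 the *Bhlhe41* difference was -0.36, and without WT mouse 1 that of *Bhlhe40* was 0.03. *Nr1d2*, the close relative of *Nr1d1*, differed by 0.14 (SE 0.16), or 0.03 without R6/2 mouse 4. *Tef*, a D-box activator like *Dbp*, differed by -0.19 (SE 0.13), *Ciart*, a further repressor, by -0.19 (SE 0.26) and *Arntl2*, the relative of *Arntl*, by 0.12 (SE 0.14). Of 13 modifiers and cofactors of the clock proteins 9 were measured, with 1 lower, 8 higher and 0 at that p. *Sfpq*, a cofactor of PER proteins, and the casein kinase gene *Csnk1e* differed by 0.14 (SE 0.11) and 0.10 (SE 0.10), and the deacetylase gene *Sirt1* by 0.10 (SE 0.11).

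Output genes of the clock were mixed. Of 5, 3 were lower and 2 higher in R6/2 mice, with 1 lower at an unadjusted limma p under 0.05, beside 3.31% of all genes. *Tsc22d3*, which encodes the glucocorticoid-induced leucine zipper GILZ, averaged 7.32 ± 0.38 in R6/2 and 7.92 ± 0.28 in WT mice (SD, n = 6 each), a difference of -0.60 (SE 0.18, limma adjusted p = 0.630, SAM q 7.14%). *Usp2*, a ubiquitin protease gene, differed by 0.56 (SE 0.29, limma adjusted p = 0.869) and *Tspan4* by -0.21 (SE 0.15). *Nampt*, the enzyme of NAD salvage, and *Wee1*, a cell cycle kinase, differed by 0.16 (SE 0.18) and 0.00 (SE 0.14).

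The genes most like *Arntl* over the 12 mice were *Fbxo33* (r = 0.979), *Usp24* (0.974), *Ercc6* (0.966), *Fbxl14* (0.961) and *Ddx46* (0.956). Those most opposite to it were *Fgfrl1* (-0.982), *Epb41l1* (-0.978), *Cd302* (-0.972), *Cavin2* (-0.969) and *Syap1* (-0.965). *Dbp* came 63rd from the lowest among all genes for *Arntl*, *Per3* 1101st and *Nr1d1* 2205th, while *Arntl* was among the 5 lowest for *Dbp*. Many genes outside the clock thus ran against *Arntl* more strongly than *Per3* or *Nr1d1* did. For *Dbp*, *Per3* came 13846th from the lowest among all genes. For *Dbp* the most alike were *Tnks1bp1* (0.948), *Plin1* (0.938), *Eif4ebp1* (0.937), *Epb41l1* (0.936) and *Echdc2* (0.935), among which *Plin1*, the lipid droplet coat protein of fat cells, is itself in the fat cell list. *Abhd8* (-0.946), *Fam3c* (-0.942), *Arntl* (-0.939), *Prmt3* (-0.938) and *E330020D12Rik* (-0.929) were the most opposite to *Dbp*. These values describe 12 mice that share their sampling and composition.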

How the data were processed

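The authors processed the 12 arrays jointly with Affymetrix Expression Console 1.1.2 (RMA). What they deposited are log2 signals of 41345 probe sets, from 0.658 to 13.9, with array medians of 5.75 to 5.87. The genome build of the array annotation is not given in the sources used here. Of the probe sets, 23521 have 1 gene symbol, 1820 several and 16004 none. Those with 1 symbol were kept where the mean of a genotype was above the median of probe sets without a symbol (5.44 in R6/2, 5.45 in WT), which left 15328 probe sets and 14550 genes, of which 595 had several probe sets and were merged by the median.

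The main test was limma 3.58.1 in R 4.3.3 (lmFit and eBayes, R6/2 minus WT, 6 mice each, no covariate), with p-values adjusted over all genes after Benjamini and Hochberg and called under 0.05. SAM used 100 permutations, a constant s0 of 0.0546 and a q of 5%. Pearson and Spearman correlations of 5 clock gene pairs had two-sided permutation tests of 100000 resamples, exact within a genotype. The number of mice limits the precision. Methods were also run on simulated data, and the outcome is not given here. matplotlib 3.10.9 under Python 3.11.15 drew the plots.

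The members, the other lists and the tests were chosen with earlier results of these data known. Named genes were the members, up to 6 per further list with the smallest limma p, and the 5 most and least correlated with *Arntl* and *Dbp*. *Lep* and *Plin1* of the marker lists were named after their values were seen. Alternatives covered normalization, array weights, the variance model, the level filter, how probe sets were merged, a replicate block, marker covariates, SAM and leaving out each mouse. Covariates of the fat cell mean, *Dbp* and *Arntl*, the omission of the 3 mice lowest in lymphocyte markers or, for the other lists, of each mouse, and correlations with marker means taken out were added after the values had been seen. The p-values of the fit set the difference of the genotypes against the spread between mice. With 1 array per mouse, variation of mice, dissections and arrays cannot be told apart.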

Additional observations from a re-analysis of the deposited data

Results flagged for a closer look

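*Per1* in R6/2 mouse 4 had a log2 signal of 9.48, far above the other 5 R6/2 mice, by a gap of 0.712 of the whole range of its group. It was the only such value among 18 groups (9 clock genes in 2 genotypes), of which chance gives about 1 in 20. The same mouse had the lowest *Arntl* signal (6.25) and the highest *Dbp* (9.84) and *Per3* (9.21) signals of all 12 mice, with a lymphocyte mean of 5.69 and a fat cell mean of 11.77. Without this mouse *Per1* differed by -0.64 between R6/2 and WT mice (limma adjusted p = 0.0491). Of all genes, 23 then passed limma, against 0 with all 12 mice. The part of the sample's composition in this value was not tested.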

How the results depend on the processing

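The differences of *Nr1d1*, *Per1*, *Cry1* and *Clock* kept their sign in each setting tried. No gene passed limma in the main analysis, where 850 genes had an unadjusted p under 0.05, against 41 genes called by SAM, 1 with the arrays quantile-normalized again, 46 with array weights, 2 with a replicate block, 16 with the lymphocyte covariate, 4 with *Arntl* as covariate and 9 without the 3 mice lowest in lymphocyte markers. Leaving out 1 mouse gave 0 to 23 genes (23 without R6/2 mouse 4, 1 without WT mouse 1 or WT mouse 3), while SAM called 21 (without R6/2 mouse 2) to 430 genes (without R6/2 mouse 4). Clock genes past limma were 0, against 1 with array weights (*Nr1d1*, -1.12) and 1 with SAM (*Nr1d1*, -0.98), and 0 to 1 when 1 mouse was left out (*Per1*, without R6/2 mouse 4). Those at an unadjusted p under 0.05 were 3, against 5 with array weights, 5 with the fat cell covariate (*Per1* not among them), 4 with *Arntl* as covariate, 2 with the muscle covariate (*Per1* not among them), 1 with the macrophage covariate and 2 to 3 when 1 mouse was left out. Leaving out each mouse moved *Per1* between -0.64 and -0.39, *Arntl* between 0.08 and 0.45, *Dbp* between -0.32 and -0.08, *Per3* between 0.13 and 0.37, *Clock* between -0.22 and -0.08 (without R6/2 mouse 2) and the balance between 0.17 and 0.53.

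Signs turned for small differences. *Per3* was -0.0043 and *Cry2* -0.039 with array weights. *Npas2* was 0.020 with the muscle and 0.33 with the macrophage covariate, with which *Cry2* was -0.039. *Arntl* was -0.27 and *Dbp* 0.10 with the fat cell covariate, *Arntl* was -0.060 with *Dbp* as covariate, and *Cry2* was -0.060 without the 3 mice lowest in lymphocyte markers. With 1 mouse left out, *Cry2* ranged from -0.010 to 0.17 and *Npas2* from -0.33 to 0.013. The correlation of *Arntl* with *Nr1d1* was -0.713 within WT mice, where it did not pass, and 0.093 with genotype, lymphocyte and fat cell means taken out. That of *Npas2* with *Nr1d1* was -0.050 over deviations from the genotype means, -0.243 within WT mice, -0.277 with genotype and lymphocyte mean taken out and -0.384 with the fat cell mean too. For each of these the cause was not tested.

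The labels number the mice 1 to 6 in both genotypes, and no pairing by these numbers was seen. Deviations of same-numbered mice correlated with r from -0.785 to 0.776, and 1 of 6 mice correlated best with its own number. Because the arrays differed in lymphocyte and muscle markers, these correlations cannot exclude pairs. With the replicate block no clock gene passed limma and *Nr1d1* differed by -0.98 (adjusted p = 0.494). The 12 mice of unstated hour, the unused probe set of *Per2* and the low signal of *Npas2* limit what these values show.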

Other observations

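Most genes of the list that glucocorticoids induce had a lower mean in R6/2 mice. Of 9, 7 were lower and 2 higher, with 5 lower and 1 higher at an unadjusted limma p under 0.05, beside 3.31% and 2.53% of all genes. SAM called 3 of them lower, beside 0.275% of all genes, and limma called none after adjustment. *Mt2*, a metallothionein gene, averaged 8.54 ± 0.35 in R6/2 and 10.05 ± 0.80 in WT mice (SD, n = 6 each), a log2 difference of -1.51 (SE 0.32, SAM q 0%). *Zbtb16*, a zinc finger repressor gene, differed by -1.33 (SE 0.30, SAM q 0%) and *Fkbp5*, a co-chaperone gene of the glucocorticoid receptor, by -0.97 (SE 0.26, SAM q 4.88%). *Mt1* and *Klf9*, which passed neither SAM nor limma after adjustment, differed by -0.74 (SE 0.22) and -0.62 (SE 0.27). *Pdk4*, the kinase that shuts off pyruvate dehydrogenase, differed by 1.01 (SE 0.31) in the other direction, with a SAM q of 23.3%. *Per1* and *Tsc22d3* of the clock lists, which are also known to respond to glucocorticoids, had differences of -0.46 and -0.60 on the same scale. Other genes of the clock lists were higher in R6/2 mice, among them *Usp2* by 0.56 and *Cry1* by 0.35. Whether glucocorticoids had a part in any of these differences was not tested.

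Of 6 immediate early genes, which stress and handling induce, 3 were lower and 3 higher in R6/2 mice and 0 had an unadjusted limma p under 0.05. *Nr4a1* differed by 0.59 (SE 0.34) and *Fos* by -0.64 (SE 0.39). WT mouse 1 had the highest *Fos* signal, 8.51, against 5.67 to 6.36 in R6/2 and 5.72 to 6.79 in the other WT mice, and also the highest *Fosb* signal, 8.31. Without this mouse, an omission added after the values had been seen, *Fos* differed by -0.26 and *Fosb* by -0.07.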
